A study of Mus musculus with 4 samples.

Results

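The cholesterol and fatty acid synthesis genes are the enzymes that build sterols and fatty acids from acetyl-CoA, together with the sterol-sensing proteins that control them. The set held 33 of the 18298 genes that were read in any sample, and every member had reads in all 4 samples. The members were chosen by name from the pathway, and the set was selected on the mutant-to-control differences in these same samples. The differences between genotypes are therefore a description of these samples, and the counts of members called in the fits across all genes are no independent evidence. RNA was sequenced from primary rib chondrocytes, the cells that make cartilage, taken from C57BL/6 mouse embryos at E18.5 and cultured to passage 1. The Mut group (n = 2) carried Dermo1-Cre;Senp6f/f and the WT group (n = 2) carried Senp6f/f without Cre, so both groups had the floxed alleles of Senp6, which encodes a SUMO protease. The recombinase of Dermo1-Cre is driven by the Twist2 locus, which is active in mesenchymal progenitors, and it acts in fibroblasts and bone-forming cells as well as in chondrocytes. Whether each culture came from 1 embryo or from pooled litter mates is not given in the sources used here, so the spread between samples may be partly technical.

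The reads counted on genes numbered between 21.0 and 31.0 M (mega) per sample, and the members had between 319 and 84944 reads each per sample. Senp6 had an RPKM (the reads of a gene divided by its length and by the reads counted in the sample) of 10.8 and 18.0 in WT replicates 1 and 2 and of 12.0 and 8.07 in Mut replicates 1 and 2, so the groups overlapped and the gene-level value did not separate the genotypes. Deleted exons cannot be seen in a count per gene. A pair of libraries stood apart. Mut replicate 2 had an RPKM of 22.4 for Xist, the RNA of the inactive X chromosome, against at most 0.0107 in the others, and WT replicate 1 had the highest levels of fat cell markers. Where leaving out a single library moved a member's value by over 1.5 times, the value without it is given beside the result for the differences without overlap. The chondrocyte markers were all detected, with Col2a1, the main collagen of cartilage, at an RPKM of 609 and 659 in WT and of 334 and 445 in Mut.

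Cells regulate these genes together through the SREBP transcription factors. SREBP precursors sit in the membrane of the endoplasmic reticulum bound to SCAP. When membrane cholesterol is low, SCAP carries them to the Golgi, where proteases release the active factor. When cholesterol is high, INSIG proteins hold the complex back. SREBP2 (Srebf2) mainly drives sterol synthesis and SREBP1 (Srebf1) mainly drives fatty acid synthesis, and both bind promoters beside the factors NF-Y and Sp1. Chondrocytes need both lipids for membranes and for the large secretory apparatus that exports collagen, and cholesterol is attached to hedgehog ligands in the growth plate.

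Most members were lower in both Mut samples by a modest amount, without passing the test across all genes. The median log2 fold change of the 33 members was -0.39, against 0.01 over all 14123 genes tested, and the single values lay between -1.14 and 0.15. The members together took 1% and 1.02% of the reads in WT replicates 1 and 2, and 0.880% and 0.731% in Mut replicates 1 and 2. In bulk RNA fewer cells of a type and less RNA per cell cannot be told apart. The fitted difference was negative for 30 of 33 members, as it was for 48.6% of all genes tested. On counts scaled by TMM (a correction of library size by the bulk of the genes), both Mut samples were below both WT samples for 28 members, a pattern found for 22.8% of all genes tested. Both Mut samples were above both WT samples for 1 member, Hsd17b7, against 25.4% of all genes tested. The difference between the group means was wider than the difference within either pair for 22 members. The share of all genes with this pattern was not computed, so nothing is read from this count.

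In the quasi-likelihood test of edgeR with Benjamini-Hochberg adjustment, 0 members had an adjusted p under 0.05 in either direction, and this was also the case for 0% of all genes tested. At an unadjusted p under 0.05 in that test, 18 members were lower in Mut, where 6.28% of all genes were, and 0 were higher, where 9.29% of all genes were. DESeq2, a second count model, called 5 members lower and 0 higher at an adjusted p under 0.05. These were Tm7sf2, Mvd, Mvk, Dhcr7 and Acat2, and DESeq2 called 1.86% of all genes lower and 3.07% higher. For any 1 gene, permuting 2 against 2 samples exactly allows no two-sided p below 0.333. The number of members that edgeR called lower at an adjusted p under 0.05 was 5 without WT replicate 1, where 0.999% of all genes were called lower, and 15 without WT replicate 2, where 10.3% were. It was 1 without Mut replicate 1 and 0 without Mut replicate 2, where 0.634% and 0.27% of all genes were called lower. The median of the members was -0.53 without Mut replicate 1 and -0.25 without Mut replicate 2, so its size rested on which mutant sample was kept. It was -0.37 without WT replicate 1 and -0.44 without WT replicate 2.

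**Figure D1:**
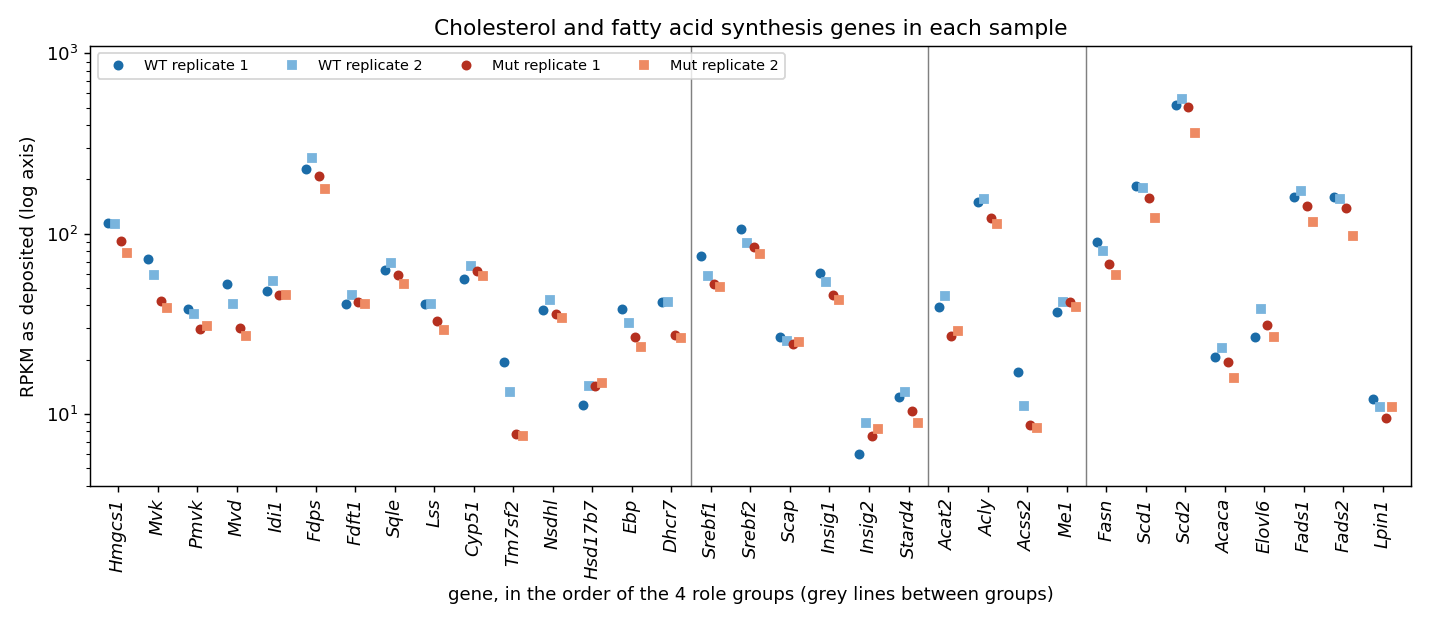
RPKM of each of the 33 genes (log axis) in the 4 samples, with circles for replicate 1 and squares for replicate 2, in dark and light blue for WT and in red and orange for Mut. Scd2 was the most abundant member, and for genes such as Dhcr7, Mvk and Acat2 the red and orange points lie below both blue points, while Cyp51, Me1, Insig2 and Elovl6 overlap.

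Among the motifs searched in the promoters of the set, the NF-Y box had the widest gap in share from the tested genes. The genes were chosen from a pathway under SREBP control, and SREBPs bind beside NF-Y and Sp1. The choice is therefore not independent of these motifs. RefSeq promoter windows of the GRCm38.p6 build, from 250 bases before to 50 bases after a start site, were matched by Entrez identifier for 26 of the 33 members. The NF-Y box, searched as CCAAT on both strands, was found in 20 of these 26 genes (76.9%), and in 42.7% of the 11153 tested genes with a window. It started within the 100 bases before the start site in 15 of the 26 (57.7%), against 26.2% of the tested genes. The Sp1 box, searched as GGGCGG on both strands, was found in 21 of 26 (80.8%), against 68% of the tested genes. The E-box CACGTG was found in 4 of 26 (15.4%), against 11.5%. The sterol regulatory element, searched as TCACNCCAC on both strands, was found in Hmgcs1 only among the 26, and in 1.37% of the tested genes. Over all 32851 windows the shares were 37.4% for the NF-Y box, 35.7% for the Sp1 box, 7.15% for the E-box and 1.24% for the sterol regulatory element. A match says only that the letters are present, and the absence of a match says only that these letters are not in the window.

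The 150 bases before the start site are shown for selected lower genes of the mevalonate branch, the late sterol steps and fatty acid synthesis. Hsd17b7 and Cyp51, which did not share the lower level, are shown as well. Each gene shown has an NF-Y box. Ebp and Fads2, with differences of similar size to Hmgcs1 and Fasn, are not shown, so the selection does not stand for the set. The sequences run 5′ to 3′ on the strand of the gene. The capitals mark the NF-Y box (CCAAT, or ATTGG where it lies on the other strand) and, in Hmgcs1, also the sterol regulatory element. The Dhcr7 sequence belongs to the most downstream of its 3 start sites, the only one with an NF-Y box.
Hmgcs1 (chr13:119690201-119690350, plus strand): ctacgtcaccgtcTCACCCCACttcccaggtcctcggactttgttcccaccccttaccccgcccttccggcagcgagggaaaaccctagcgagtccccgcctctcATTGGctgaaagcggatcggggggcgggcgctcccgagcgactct
Mvk (chr5:114444119-114444268, plus strand): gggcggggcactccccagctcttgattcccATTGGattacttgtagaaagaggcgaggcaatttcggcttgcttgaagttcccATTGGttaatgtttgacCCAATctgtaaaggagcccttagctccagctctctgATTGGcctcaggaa
Mvd (chr8:122443423-122443572, minus strand): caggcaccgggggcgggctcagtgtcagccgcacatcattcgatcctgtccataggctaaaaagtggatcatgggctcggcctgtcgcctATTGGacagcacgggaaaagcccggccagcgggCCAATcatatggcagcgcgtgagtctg
Tm7sf2 (chr19:6067851-6068000, minus strand): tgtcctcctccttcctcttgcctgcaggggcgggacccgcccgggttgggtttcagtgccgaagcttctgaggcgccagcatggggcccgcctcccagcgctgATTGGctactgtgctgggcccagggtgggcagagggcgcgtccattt
Dhcr7 (chr7:143830064-143830213, plus strand): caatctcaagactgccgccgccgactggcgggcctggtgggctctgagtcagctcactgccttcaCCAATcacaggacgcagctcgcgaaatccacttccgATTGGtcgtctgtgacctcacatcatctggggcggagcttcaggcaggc
Fasn (chr11:120824548-120824697, minus strand): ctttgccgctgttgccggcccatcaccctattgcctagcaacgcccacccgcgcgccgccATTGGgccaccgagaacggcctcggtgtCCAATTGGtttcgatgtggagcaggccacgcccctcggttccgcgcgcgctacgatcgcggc
Hsd17b7 (chr1:169969206-169969355, minus strand): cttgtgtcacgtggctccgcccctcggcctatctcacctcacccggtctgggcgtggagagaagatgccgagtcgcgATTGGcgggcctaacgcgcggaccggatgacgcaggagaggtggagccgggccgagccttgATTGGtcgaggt
Cyp51 (chr5:4104698-4104847, minus strand): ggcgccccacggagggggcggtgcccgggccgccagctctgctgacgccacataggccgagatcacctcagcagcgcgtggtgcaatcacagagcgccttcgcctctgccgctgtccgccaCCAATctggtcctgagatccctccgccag

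In the windows the NF-Y box of Hsd17b7 and Cyp51 lay as close to the start site as that of Mvd or Tm7sf2. The first base of the box nearest to the start was 12 bases before it in Hsd17b7 and 29 in Cyp51, and 27 and 47 bases before it in Mvd and Tm7sf2. The whole windows, which reach beyond the bases shown, held 5 NF-Y boxes in Mvk and 4 in Hmgcs1. The fitted differences had a median of -0.42 (log2) for the 20 members with an NF-Y box, of which 17 were negative, and -0.29 for the 6 members without it (Acaca, Acat2, Elovl6, Fads2, Lpin1 and Scap), of which 6 were negative. Since the members were selected on these differences, nothing is read from this split.

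**Figure D2:**
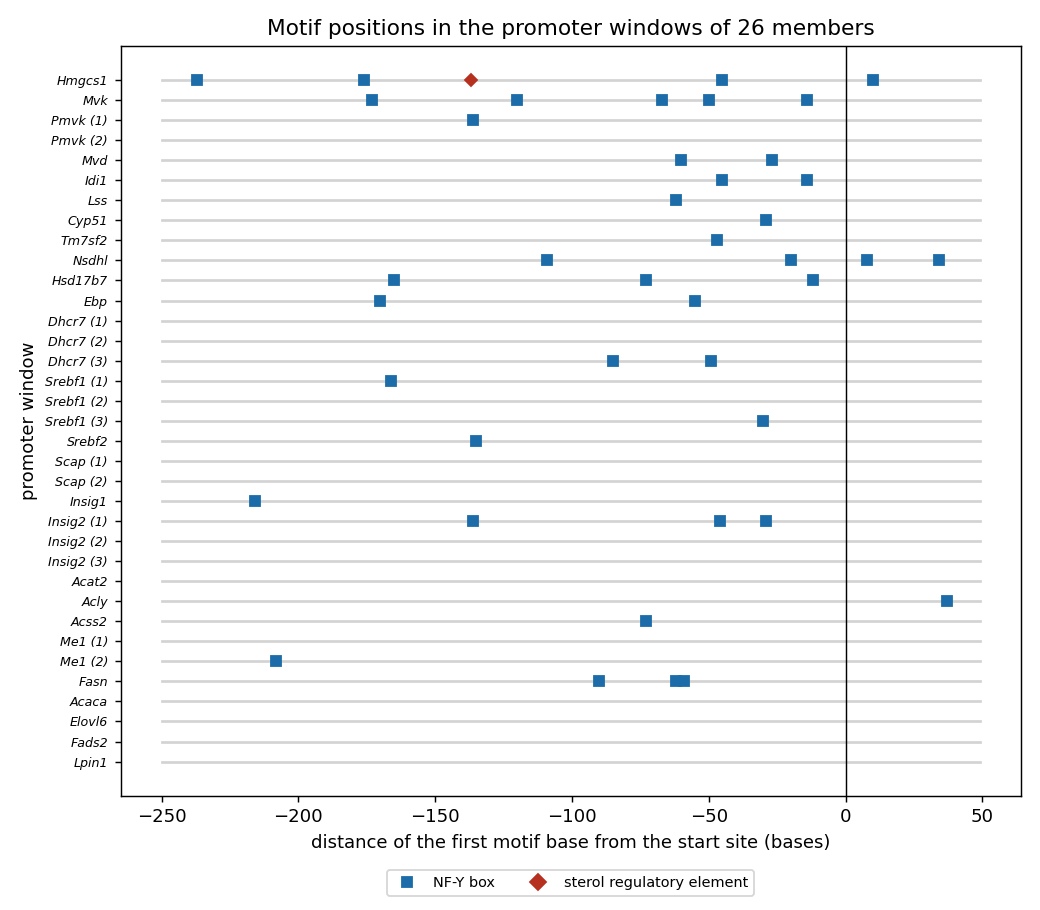
Positions of the NF-Y box (blue squares) and of the sterol regulatory element (red diamond) in the promoter windows of the 26 matched members, as the distance in bases of the first motif base from the start site at 0. Genes with several start sites have a line for each, and 15 of the 26 genes have a blue square within the 100 bases left of the start.

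The mevalonate branch turns acetyl-CoA into the isoprenoid farnesyl diphosphate, and each of its 6 members was lower in both Mut samples, with a median log2 fold change of -0.43. Hmgcs1, the synthase that makes HMG-CoA, had an RPKM of 115 and 114 in WT and of 91.0 and 78.4 in Mut, with no overlap (log2 fold change -0.47, standard error 0.14). Mvk, mevalonate kinase, had 72.6 and 58.8 in WT and 42.6 and 38.9 in Mut (log2 fold change -0.73, standard error 0.16). Mvd, the decarboxylase that makes isopentenyl diphosphate, had 52.7 and 40.9 in WT and 29.9 and 27.0 in Mut (log2 fold change -0.76, standard error 0.18). For both enzymes WT replicate 1 was the highest sample, and WT replicate 2 was still above both mutants. Between them in the pathway stands Pmvk, phosphomevalonate kinase, with 38.1 and 35.8 in WT and 29.5 and 30.7 in Mut (log2 fold change -0.34, standard error 0.13). Idi1, the isomerase of isopentenyl diphosphate, had 47.9 and 54.7 in WT and 45.6 and 45.5 in Mut. Its log2 fold change of -0.21 (standard error 0.12) was the smallest of the branch. Fdps, which joins the isoprenoid units, was the most abundant sterol enzyme, with 230 and 263 in WT and 210 and 178 in Mut (log2 fold change -0.38, standard error 0.15). In the GENCODE annotation of GRCm38, 26.7% of the exon bases of Fdps are shared with a second protein-coding gene model on the same strand, so its count is uncertain. Without Mut replicate 2 the log2 fold change of Fdps was -0.25.

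The steps from farnesyl diphosphate to lanosterol differed less, and the median over their 3 genes was -0.29 (log2). Fdft1, squalene synthase, had an RPKM of 40.5 and 45.4 in WT and of 41.8 and 40.8 in Mut, which overlapped on this scale and did not after TMM scaling (log2 fold change -0.10, standard error 0.12). Its exons share 18.3% of their bases with Ctsb on the opposite strand, and its log2 fold change was -0.15 without WT replicate 1 and -0.06 without Mut replicate 2. Whether the counting used strand is not given in the sources used here. Sqle, the epoxidase that is a control point of the pathway, had 63.0 and 69.0 in WT and 58.8 and 52.5 in Mut (log2 fold change -0.29, standard error 0.13), and its log2 fold change without Mut replicate 2 was -0.18. Lss, which closes the rings of lanosterol, had 40.9 and 40.6 in WT and 32.9 and 29.1 in Mut (log2 fold change -0.44, standard error 0.13). The WT replicates of Lss lay close together, and both mutants were below them.

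The steps from lanosterol to cholesterol held both the most negative and the most positive log2 fold change of the set. Tm7sf2, a sterol reductase of the endoplasmic reticulum, had an RPKM of 19.4 and 13.2 in WT and of 7.74 and 7.55 in Mut. Its log2 fold change was -1.14 (standard error 0.23), a Mut level of 45.5% of WT, and it ranged from -1.44 without WT replicate 2 to -0.80 without WT replicate 1. Tm7sf2 shares 12.1% of its exon bases with Vps51 on the same strand, and the log2 fold change of Vps51 itself was -0.57 (standard error 0.19). Dhcr7, which makes cholesterol from its last precursor, had 41.8 in both WT samples and 27.6 and 26.5 in Mut, so each pair was tight (log2 fold change -0.67, standard error 0.12). Ebp, the sterol isomerase, had 38.0 and 32.2 in WT and 26.6 and 23.7 in Mut (log2 fold change -0.52, standard error 0.16). Nsdhl, a dehydrogenase of the demethylation steps, had 37.8 and 42.6 in WT and 35.7 and 34.2 in Mut (log2 fold change -0.24, standard error 0.13). Ebp and Nsdhl lie on the X chromosome, and Mut replicate 2, the library with Xist, was the lower of the mutants for both, as it was for 28 of the 33 members.

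Other enzymes of the same stretch did not share the lower level. Cyp51, which removes the first methyl group of lanosterol, had an RPKM of 55.9 and 65.9 in WT and of 62.3 and 58.2 in Mut. The groups overlapped, and the log2 fold change of -0.05 (standard error 0.13) was smaller than its error. Hsd17b7, a ketosteroid reductase of the demethylation steps, had 11.2 and 14.3 in WT and 14.3 and 14.8 in Mut (log2 fold change 0.15, standard error 0.15). Here Mut replicate 1 and WT replicate 2 were nearly equal. The log2 fold change was 0.01 without WT replicate 1 and 0.27 without WT replicate 2.

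**Figure D3:**
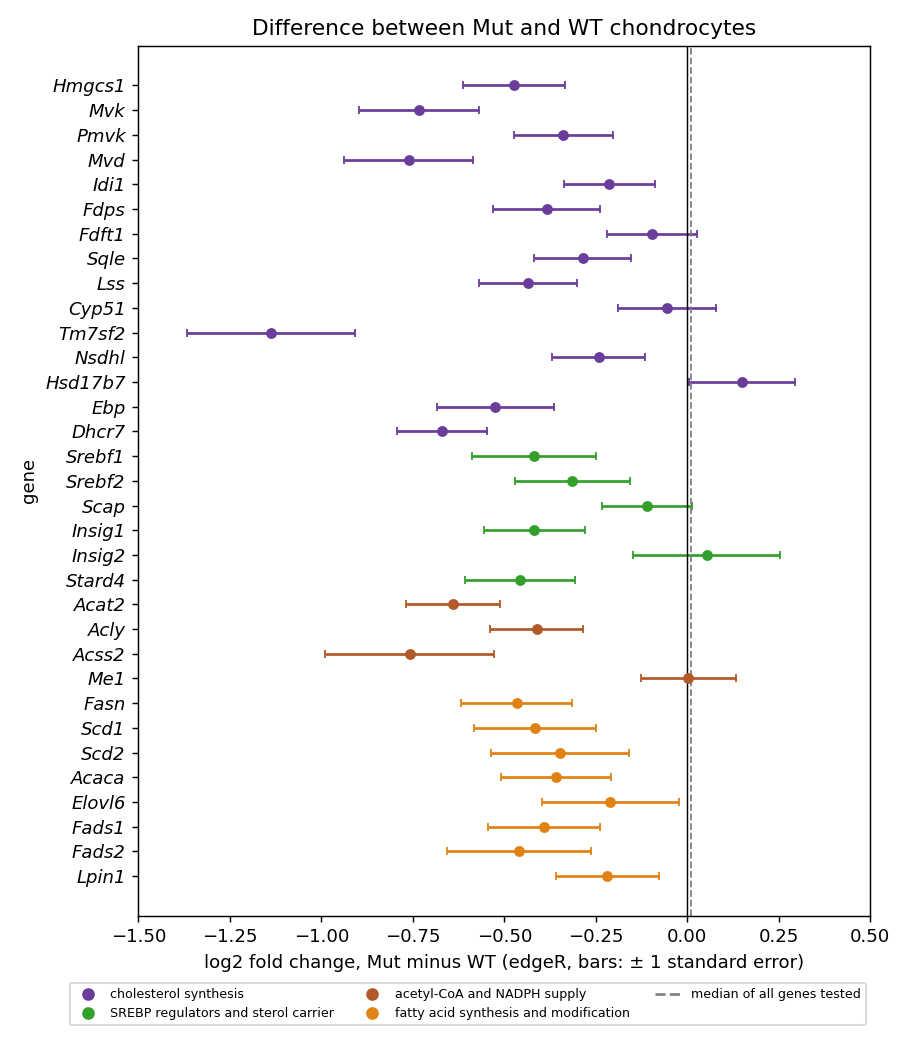
Log2 fold change of each of the 33 genes between Mut and WT samples from edgeR, with bars of 1 standard error, coloured by role group, and a dashed line at the median of all genes tested. The values reach from -1.14 for Tm7sf2 to 0.15 for Hsd17b7, and the bars of Fdft1, Cyp51, Scap, Insig2 and Me1 cross 0.

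Among the sterol-sensing proteins, both SREBP genes were lower in the mutants. With all samples they differed by less than enzymes such as Mvk or Dhcr7, and by more than enzymes such as Idi1 or Nsdhl. Srebf2 had an RPKM of 106 and 88.6 in WT and of 84.6 and 77.0 in Mut (log2 fold change -0.31, standard error 0.16). Srebf1 had 75.1 and 58.1 in WT and 52.5 and 50.3 in Mut (log2 fold change -0.42, standard error 0.17). For both genes WT replicate 1 was well above the other samples, and without it the log2 fold change was -0.15 for Srebf2 and -0.19 for Srebf1. Without WT replicate 2 it was -0.49 for Srebf2 and -0.64 for Srebf1. Insig1, a retention protein that is itself an SREBP target, had 60.5 and 54.0 in WT and 45.5 and 42.8 in Mut (log2 fold change -0.42, standard error 0.14). Insig2, its relative, had 5.97 and 8.86 in WT and 7.57 and 8.25 in Mut, with overlap (log2 fold change 0.05, standard error 0.20). Scap, the escort of SREBP, had 26.6 and 25.4 in WT and 24.6 and 25.1 in Mut (log2 fold change -0.11, standard error 0.12). Its groups stood side by side without overlap, and the difference was within the error, with a log2 fold change of -0.05 without WT replicate 1 and -0.20 without WT replicate 2. Stard4, a carrier that moves cholesterol between membranes, had 12.4 and 13.3 in WT and 10.4 and 8.86 in Mut (log2 fold change -0.46, standard error 0.15). The median of these 6 genes was -0.37, and -0.19 without WT replicate 1.

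The genes that supply acetyl-CoA and NADPH, the building block and the reducing power of both pathways, were split. Acat2, the cytosolic thiolase that starts the sterol branch, had an RPKM of 39.2 and 45.3 in WT and of 27.1 and 28.8 in Mut (log2 fold change -0.64, standard error 0.13). Its paralog Acat3 had an RPKM of at most 0.365. How reads that match both copies were counted is not given in the sources used here. Acly, which makes cytosolic acetyl-CoA from citrate, had 149 and 156 in WT and 122 and 113 in Mut (log2 fold change -0.41, standard error 0.13). Acss2, which makes it from acetate, had 17.0 and 11.1 in WT and 8.74 and 8.38 in Mut (log2 fold change -0.76, standard error 0.23). Acss2 depended on WT replicate 1, without which its log2 fold change was -0.39. It also shares exon bases with Ggt7 and Gss on the opposite strand, 1.94% and 3.89% of its own. Me1, the malic enzyme that makes NADPH, overlapped between the groups, with 36.5 and 41.9 in WT and 41.8 and 39.0 in Mut (log2 fold change 0.00, standard error 0.13).

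All 8 fatty acid genes had a negative log2 fold change, with a median of -0.38, and 7 of them were lowest in Mut replicate 2. Fasn, fatty acid synthase, had an RPKM of 89.9 and 80.2 in WT and of 68.1 and 58.7 in Mut (log2 fold change -0.47, standard error 0.15). Acaca, the carboxylase that makes malonyl-CoA for it, had 20.8 and 23.1 in WT and 19.4 and 15.8 in Mut (log2 fold change -0.36, standard error 0.15). Both pairs stood apart without overlap, and without Mut replicate 2 the log2 fold change of Acaca was -0.20. Elovl6, which lengthens palmitate, had 26.8 and 38.3 in WT and 31.0 and 26.6 in Mut, so it overlapped (log2 fold change -0.21, standard error 0.19). Its value was -0.43 without WT replicate 1 and 0.01 without WT replicate 2.

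The desaturases, which put double bonds into fatty acids, were abundant, and Scd2 had the highest level of the set. Scd2, a stearoyl-CoA desaturase, had an RPKM of 515 and 558 in WT and of 503 and 363 in Mut (log2 fold change -0.35, standard error 0.19). Mut replicate 1 was close to WT replicate 1, and Mut replicate 2 was far below. Its relative Scd1 had 185 and 179 in WT and 158 and 123 in Mut (log2 fold change -0.42, standard error 0.17). Fads1, the delta-5 desaturase of polyunsaturated fatty acids, had 159 and 172 in WT and 143 and 116 in Mut (log2 fold change -0.39, standard error 0.15). Its partner Fads2 had 160.5 and 155 in WT and 139 and 96.8 in Mut (log2 fold change -0.46, standard error 0.20). Without Mut replicate 2 the log2 fold change was -0.11 for Scd2, -0.22 for Scd1, -0.23 for Fads1 and -0.20 for Fads2. Without Mut replicate 1 it was -0.62 for Scd2, -0.63 for Scd1 and -0.76 for Fads2. Lpin1, a phosphatidate phosphatase that feeds triglyceride synthesis, had 12.1 and 10.98 in WT and 9.55 and 10.9 in Mut (log2 fold change -0.22, standard error 0.14). Its value was -0.12 without WT replicate 1, -0.34 without WT replicate 2 and -0.14 without Mut replicate 1. The fatty acid genes took 0.581% and 0.603% of the reads in WT and 0.530% and 0.407% in Mut. Their median was -0.58 without Mut replicate 1 and -0.21 without Mut replicate 2, while that of the 15 sterol enzymes was -0.53 and -0.33. Mut replicate 2 was below Mut replicate 1 for 28 of the 33 members, and WT replicate 1 was below WT replicate 2 for 16.

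In order of level per length, the WT cells were led by Scd2 at an RPKM of 536 ± 29.8 (SD, n = 2), followed by Fdps at 246 ± 23.6 (SD, n = 2) and Scd1 at 182 ± 3.87 (SD, n = 2). Fads1, Fads2 and Acly came next at 165 ± 9.08, 158 ± 3.92 and 152 ± 4.51 (SD, n = 2 each), and these neighbours did not differ beyond their spread. At the low end stood Stard4, Hsd17b7, Lpin1 and Insig2, at 12.9 ± 0.586, 12.7 ± 2.15, 11.5 ± 0.793 and 7.41 ± 2.05 (SD, n = 2 each). Hsd17b7 could not be separated from Stard4 or from Lpin1. In Mut the leading gene was also Scd2, at 433 ± 98.8 (SD, n = 2), and the lowest was Tm7sf2, at 7.65 ± 0.137 (SD, n = 2), beside Insig2 at 7.91 ± 0.484 (SD, n = 2).

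Other genes of the same pathways had medians closer to 0. Whether their samples overlapped was judged on TMM-scaled counts. Over all genes tested, 22.8% were below WT in both mutants and 25.4% above, and these shares stand beside the counts of every list below. Of 7 genes that process SREBP or control its degradation, 2 were above WT in both mutants and 0 below, with a median log2 fold change of 0.07. The 2 were Erlin2, at 0.17 (standard error 0.13), and Rnf139, at 0.12 (standard error 0.14), both proteins of sterol-dependent degradation at the endoplasmic reticulum. Of 5 other sterol synthesis genes, 2 were below WT in both mutants and 0 above, with a median of -0.15. Of 12 genes of sterol uptake, storage and efflux, 3 were below and 0 above, with a median of -0.19. These 3 were Scarb1, a lipoprotein receptor, with a log2 fold change of -0.36 (standard error 0.13), Lipa, the lysosomal lipase, with -0.20 (standard error 0.13), and Npc2, a lysosomal sterol carrier, with -0.17 (standard error 0.14).

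Of 20 other tested genes of fatty acid and glyceride synthesis, 7 were below WT in both mutants and 1 above, with a median log2 fold change of -0.13. The 3 largest without overlap were Acsl1, an acyl-CoA synthetase, at -0.95 (standard error 0.35), Gpam, the first enzyme of glyceride synthesis, at -0.46 (standard error 0.16), and Slc25a1, the mitochondrial citrate exporter, at -0.42 (standard error 0.15). Acsl1 had an RPKM of 19.9 in WT replicate 1 and of 9.14 in WT replicate 2, against 7.20 and 8.41 in Mut. Fatty acid oxidation, the opposite pathway, had 3 genes above and 4 below among 12, with a median of -0.03. Its largest without overlap were Pdk4, a kinase that spares glucose, at 0.63 (standard error 0.31), the nuclear receptor Ppara at -0.55 (standard error 0.36) and Cpt2 at -0.32 (standard error 0.17). Of 3 further NADPH-producing enzymes only Idh1 was apart, at -0.37 (standard error 0.13), and the other two overlapped. By edgeR with Benjamini-Hochberg adjustment, 0 of the 58 genes in these other lists had an adjusted p under 0.05 in either direction, and DESeq2 called 0 of them as well. At an unadjusted p under 0.05 8 of them were lower and 0 were higher in either tool.

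Fat cells also express the fatty acid genes, and the adipocyte markers were lower in the mutants as well. Of 10 markers 7 could be tested, 5 of them were below WT in both mutants, and their median log2 fold change was -1.69. Adipoq, the hormone adiponectin, had an RPKM of 12.8 and 2.61 in WT and of 0.968 and 1.18 in Mut. The summed RPKM of the list was 192 and 60.7 in WT and 32.9 and 45.8 in Mut. Lep had 0 reads in both mutants, Retn had 0 reads in Mut replicate 1, and Ucp1 was not listed in any sample. The WT samples differed widely in these markers. The fatty acid genes had a median of 0.01 and -0.01 (log2, TMM-scaled counts) from the WT mean in WT replicates 1 and 2. Some other members were higher in WT replicate 1, such as Acss2 by 0.68, Tm7sf2 by 0.62 and Srebf1 by 0.43 (log2). Of the 33 members, 16 were lower in WT replicate 1 than in WT replicate 2. Without WT replicate 1 the median was -0.45 for the adipocyte markers and -0.39 for the fatty acid genes, which was as large as with all samples. The part of fat cells in these differences was not tested.

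**Figure D4:**
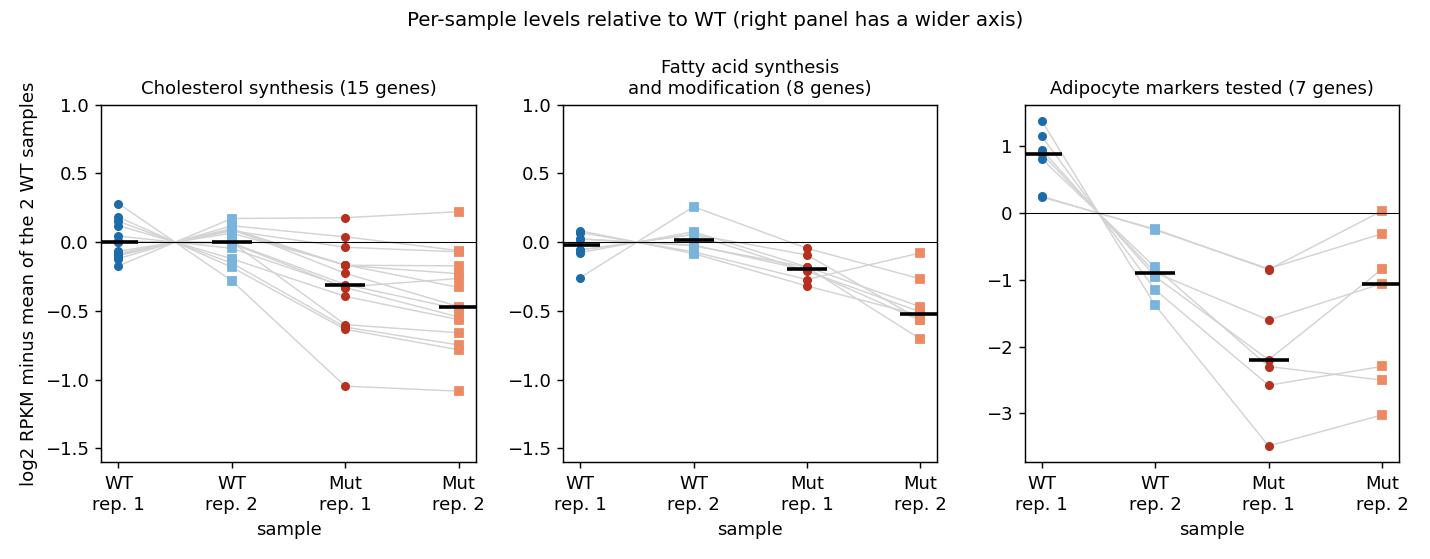
Log2 RPKM of each gene minus its mean over the 2 WT samples, per sample, for sterol enzymes (left), fatty acid genes (middle) and adipocyte markers (right, wider axis), with thin lines joining a gene and black bars at the median. The WT medians lie near 0 in the left and middle panels and far apart in the right, where WT replicate 1 is highest.

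Markers of other cell types differed between the groups as well. All 8 chondrocyte markers were lower in both mutants, with a median log2 fold change of -0.92, and their summed RPKM was 926 and 927 in WT and 494 and 613 in Mut. Of 10 muscle markers, 8 were above WT in both mutants (median 1.39), with a summed RPKM of 113 and 37.1 in WT and of 196 and 219 in Mut. Of 5 tested osteoblast markers 4 were below and 1 above (median -1.11), with 482 and 538 in WT and 498 and 641 in Mut. Bglap, a defining osteoblast marker, had 0 reads in WT replicate 1 and in Mut replicate 1, and at most 3 in any sample. Alpl had an RPKM of 90.1 and 45.7 in WT and of 11.6 and 22.4 in Mut. Ibsp had 70.7 and 16.7 in WT and 4.62 and 11.8 in Mut. Most of the summed RPKM came from Spp1, the marker above WT, with 310 and 468 in WT and 479 and 600 in Mut. Of 6 fibroblast markers 4 were below and 1 above (median -0.62), with 12470 and 8629 in WT and 8776 and 6396 in Mut. All 5 macrophage markers were below (median -0.72), with 16.9 and 14.8 in WT and 6.68 and 10.2 in Mut. The blood markers were near 0, with a summed RPKM between 0.0825 and 0.291, and none could be tested. The part of these cell types in the lower level of the sterol and fatty acid genes was not tested.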

How the data were processed

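RNA of cultured rib chondrocytes (2 Mut and 2 WT samples) was enriched for poly(A), fragmented and sequenced. For each gene the authors deposited a raw read count, an RPKM (the count divided by gene length and by all reads counted on genes) and the percent of its length that reads covered, used here only as a check. Genes without a read are not listed in a file and were given a count of 0. The processing notes of the submitters name the mm9 build and SAMtools, and the aligner, counter, annotation and strand setting are not given in the sources used here. RefSeq promoter windows and the GENCODE M21 annotation are of GRCm38, and no coordinate was converted.

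Raw counts entered edgeR 4.0.16 in R 4.3.3 (robust quasi-likelihood test, TMM factors between 0.966 and 1.03). A gene needed 10 counts in 2 samples to be tested, which 14123 genes had, and the Benjamini-Hochberg adjustment covered all of them. The standard error of a log2 fold change is its size divided by the square root of F. Alternatives were DESeq2 1.42.0, RLE factors, library size only, no filter, 10 counts in every sample, limma 3.58.1 on log2(RPKM + 1) and log2(RPKM + 0.1), a block for the replicate number, and the omission of each sample. The scripts were tested on simulated counts. The counts of the pairs differed by far more than sampling noise (chi-square over degrees of freedom of 40.7 for WT and 20.1 for Mut), so each sample was counted separately. The members and the other lists were chosen with earlier results of these data known. All members are named, and of the other lists at most the 3 largest differences without overlap, besides cell type markers. Vps51 and the other genes that may share reads with members were named after their values were seen.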

Additional observations from a re-analysis of the deposited data

How the results depend on the processing

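With 2 samples per group the size of single differences is poorly fixed, and depth was not the limit, since every member had at least 319 reads in each sample. Over 12 alternatives 28 of the 33 members stayed negative and Hsd17b7 stayed positive, and 4 (Cyp51, Elovl6, Insig2 and Me1) changed sign in at least 1. Of the 396 alternative values of single members, 369 were within 1 standard error of the reported value. The values beyond it all came from the omission of a sample, and none from a refit of all 4 samples. At an adjusted p under 0.05, edgeR called 0 genes higher and 0 lower as reported, and DESeq2 called 434 and 263. With edgeR the numbers were 6 and 2 with library size only, and 225 and 61 without a filter on low counts. The members called lower, 0 as reported, were 5 with DESeq2 and 2 (Dhcr7 and Tm7sf2) without a filter. A block for the replicate number gave 84 genes called higher and 33 lower, with 0 members among them, and the members' median was -0.40. Whether equal replicate numbers mark a shared litter or preparation is not given in the sources used here. The replicate differences of the genotypes had a correlation of -0.0423 across genes. With a single difference per genotype, this cannot settle whether the samples were paired. Leaving out each sample in turn gave 68 to 1296 genes called higher, 37 to 1444 lower and 0 to 15 members lower, with the extremes without Mut replicate 2 and without WT replicate 2. The lone sample of a group is then assumed to vary like the other group. The median of the members ranged from -0.53 to -0.25 over these omissions. With all 4 samples, both mutants were below both WT samples for 27 members with library size only and with limma, against 28 as reported. The cause of these shifts was not tested.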

Other observations

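Ggt7, which overlaps Acss2 on the opposite strand, had an RPKM of 18.8 and 11.6 in WT and of 8.08 and 7.44 in Mut, a log2 fold change of -1.02 (standard error 0.25) in the same direction as Acss2. Gss, which overlaps Acss2 as well, had 12.0 and 15.8 in WT and 15.9 and 21.9 in Mut, in the opposite direction. These neighbours were chosen after their values were seen, and how many reads they share with Acss2 was not tested.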
